A study of Danio rerio with 12 samples.

Results

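The change between the second and the third day after the tail fin of adult zebrafish, Danio rerio, had been cut was measured in 6 of the 12 RNA-seq libraries of a fin regeneration series. These were the 3 libraries titled as 2 days post amputation (dpa) and the 3 titled as 3 dpa, taken by their titles alone. All fish were of the AB-Tu strain and 8 to 18 months old, with no mutation, transgene or drug named in the labels. Each library was made from mRNA of caudal fin tissue of 6 fish, so no value belongs to a single fish. The labels do not say whether fish were shared between stages. The p-values rest on how far pools of the same stage differed, over all stages in the fit, and not on differences between single fish. The other 6 libraries, 3 from uncut fins (0 dpa) and 3 from 10 dpa, entered the fit for its estimate of spread and are quoted as levels only.

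A zebrafish fin ray consists of a pair of bony half-tubes lined by osteoblasts, around a core of fibroblasts, vessels, nerves and pigment cells, under a layered epidermis. After amputation the epidermis closes over the stump, cells of the stump lose differentiated features, and a blastema of dividing cells forms beneath a wound epidermis. During outgrowth the distal blastema keeps the cells in a proliferating state, while more proximal cells again become osteoblasts that lay down bone and fibroblasts that secrete collagen and actinotrichia, the stiff fibrils at the fin's edge. Wnt, Fgf, Bmp, activin, Hedgehog, retinoic acid and Notch signals are all known to act in this process in zebrafish.

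The 6 libraries held 9359476 to 22843743 counts. Of 33737 Ensembl identifiers, 16612 passed a filter on low counts. Levels are given as CPM, counts scaled to a common library size after TMM normalisation, in the order of replicates 1, 2 and 3. Pairs of libraries of 1 stage differed by more than counting error (chi-square per degree of freedom 18.2 to 120), so none was another library merely sequenced again. This value does not by itself show that the pools were separate. Replicate 2 of 2 dpa stood apart from its stage. On the first principal component of the 6 libraries (46.5% of the variance), it lay at -3.36, against -40.7 and -76.6 for the other 2 dpa libraries and 27.8 to 47.7 for the 3 dpa libraries. Among the 6 libraries its highest rank correlation was with replicate 2 of 3 dpa (Spearman's rho 0.979 across genes), above that with either library of its own stage (0.960 and 0.955). No label of replicate 2 marks a different time or treatment.

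To place each library without its own help, it was left out of the fit, and its level was read, for the genes called in that fit, on a scale from its own stage's mean (0) to the other stage's mean (1). Over 1382 genes, replicate 2 of 2 dpa had a median position of 0.640 (quartiles 0.412 and 0.853), and 66.0% of these genes lay nearer to 3 dpa. Replicate 2 of 3 dpa had a median position of 0.355 over 576 genes, on the side toward 2 dpa. The other 4 libraries lay from -0.451 to 0.155. For 4 gene lists described below, the median position of replicate 2 of 2 dpa over the members called without it was 0.736 for collagens other than the fibrillar ones (12 genes), 0.695 for collagen processing (21 genes), 0.474 for vessels (20 genes) and 0.395 for Hedgehog (9 genes). For the gene lists with calls described below, these are counted among the members tested in each fit: with all libraries, without replicate 2 of 2 dpa, and as a range over the 5 fits that left out 1 of the other libraries instead. The number of calls over all genes moved in the same way. With all libraries 3.28% of the genes tested rose and 0.494% fell, and without replicate 2 of 2 dpa 6.47% and 1.72%. The list counts below are to be set against these shares. The lists were chosen with earlier results of these data known, so a share above these is a description and not a test. The 5 other fits called 161 to 509 rises and 12 to 70 falls.

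**Figure D1:**
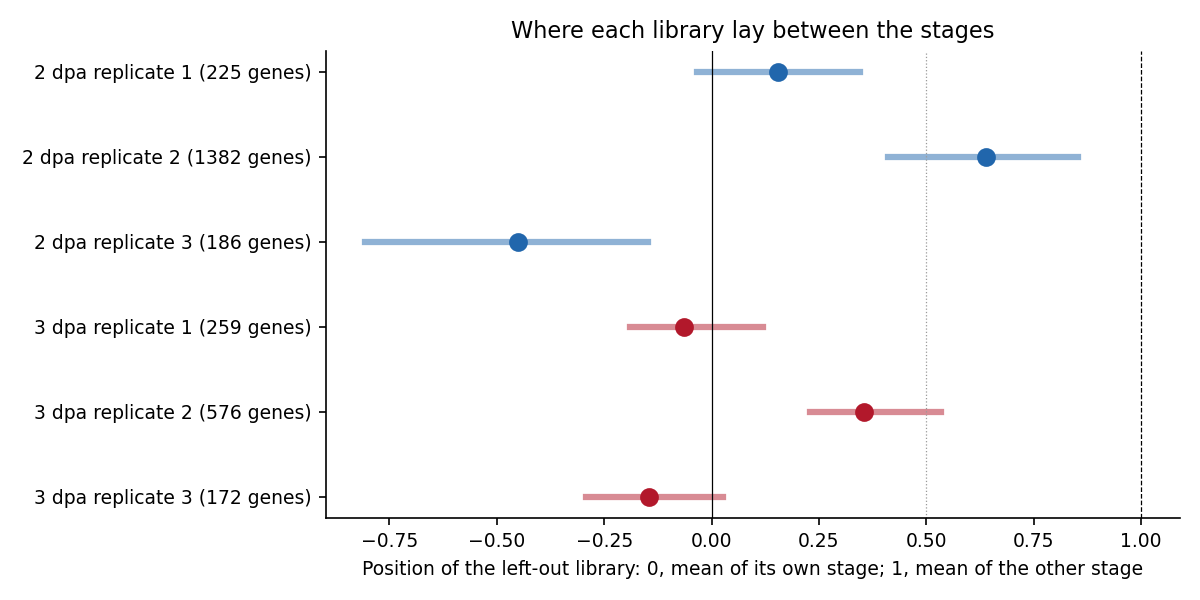
Position of each library of 2 dpa (blue) and 3 dpa (red) when left out of the fit, on a scale from the mean of its own stage (0) to that of the other stage (1); points are medians over the genes called without it and bars are quartiles. Replicate 2 of 2 dpa lies at 0.640, beyond the midpoint, and replicate 2 of 3 dpa at 0.355.

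From 2 to 3 dpa far more transcripts rose than fell. With all libraries 627 genes changed (3.77% of 16612), of which 545 rose (3.28%) and 82 fell (0.494%), at an adjusted p under 0.05 in edgeR's quasi-likelihood test, and of these 506 rose (3.05%) and 65 fell (0.391%) by at least 2-fold. Genes that rose included those of bone and actinotrichia matrix, collagen cross-linking, small proteoglycans, metalloproteinases, vessels, secreted Wnt antagonists and Hedgehog signalling. Genes that fell included fibronectin, keratins, FGF20, the activin subunit gene INHBA and the Notch ligand gene jag1a. Of these falls, as given below, only that of jag1a was called in every fit that left out 1 library. Among all 627 calls, rises and falls together, 126 held in every such fit. Without replicate 2 of 2 dpa 1393 genes changed (8.19% of 17007). Of these 1101 rose (6.47%) and 292 fell (1.72%), by at least 2-fold in 1012 (5.95%) and 161 (0.947%). The 2 sets shared 590 genes, all in the same direction, while 37 were called only with the library and 803 only without it. The median log2 change of all genes tested was 0.01 with the library and 0.02 without it.

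These counts moved with the libraries used, upward without replicate 2 of 2 dpa and downward without any other. That library was singled out because its values lay between the stages. Without it the difference tends to widen, so the added calls, here and on each list, are no separate support. Leaving out any 1 of the other 5 libraries left 161 to 509 rises and 12 to 70 falls. With the 6 libraries of 2 and 3 dpa alone, and so without the spread learned from 0 and 10 dpa, 30 genes rose and 6 fell. Of the 627 called genes 602 were tested there, and each of these kept its direction with an unadjusted p under 0.05. The change was read from the same 6 libraries in both fits, so this is not separate support for the calls. The 3 libraries of 3 dpa all lay above the 3 of 2 dpa for 1956 genes (11.8%) and all below for 1081 (6.51%), and 624 of the 627 called genes were among them. Overlap was read from the values that gave the calls, so the 624 describe the called genes and do not test them.

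**Figure D2:**
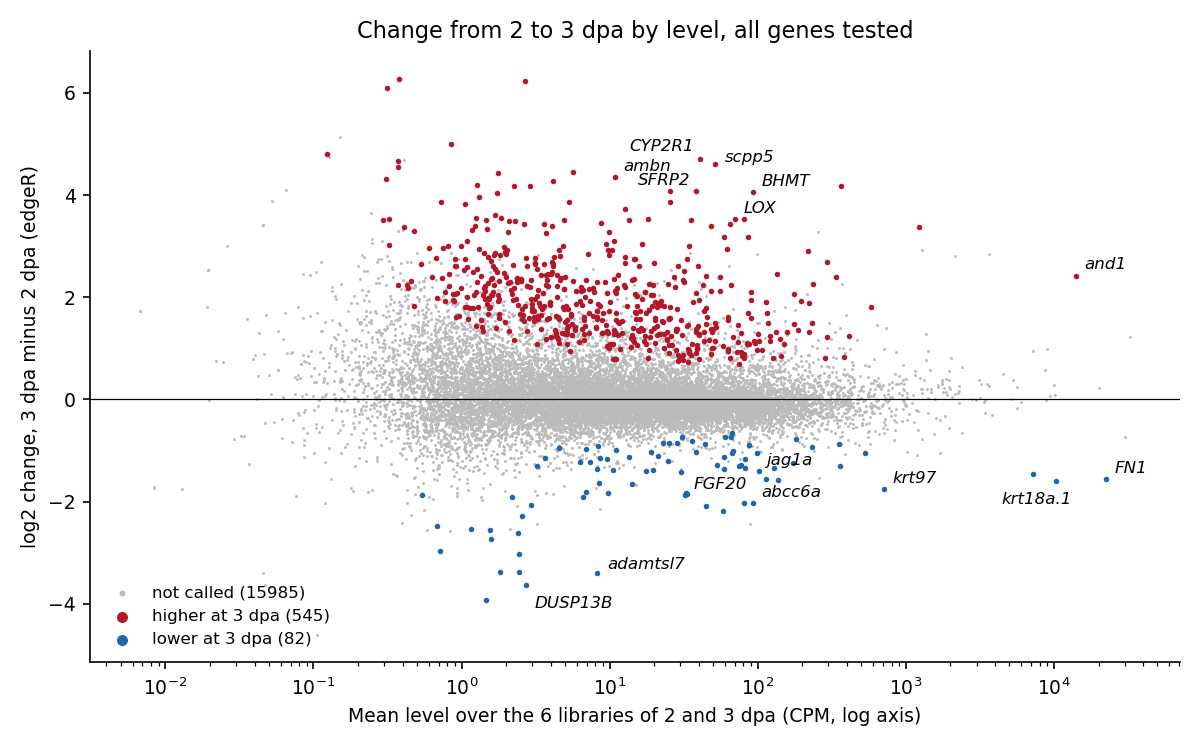
The log2 change from 2 to 3 dpa (vertical axis) against the mean level in the 6 libraries in CPM (log axis) for all 16612 genes tested; red points rose (545), blue points fell (82) and grey points were not called. Rises spread over the whole range of levels, and the falls at the highest levels are FN1 and keratin genes.

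Genes that mark the fin, the actinodins, and the epidermis, the keratins, were counted in all 6 libraries. In bulk tissue, fewer cells of a type and less RNA per cell cannot be told apart. The summed level of the 65 epidermis markers, of which 62 were tested and none was at 0, moved with the stage. It lay between 67514 and 114388 CPM in the 2 dpa pools and between 52491 and 55539 CPM in the 3 dpa pools. The groups did not overlap, and the part of this in the rises of other tissues' genes was not tested. Abundant keratins such as krt18a.1 and krt4 weigh heavily in the sum. The median log2 change of the 62 genes was -0.09, with 40 changes negative and 22 positive. Markers of vessels summed between 946 and 1035 CPM in the 2 dpa pools and between 1161 and 1282 CPM in the 3 dpa pools, with no overlap either. A large part of these sums was NOTCH3, at 503, 286 and 457 CPM at 2 dpa and 275, 293 and 299 CPM at 3 dpa. That gene ran against most of the list, though it was not called with all libraries (log2 change -0.52). Without replicate 2 of 2 dpa edgeR called NOTCH3 as a fall (log2 change -0.73, adjusted p = 0.0323). Of the 39 tested vessel genes 35 had a positive log2 change, and the median was 1.03. For the blood and muscle lists the ranges of the 2 stages overlapped. Red blood cell markers summed between 78.4 and 157 CPM in the 2 dpa pools and between 95.8 and 107 CPM in the 3 dpa pools with 12 of 18 tested and the genes hbae1.1 and EPOR at 0. Skeletal muscle markers summed between 274 and 318 CPM in the 2 dpa pools and between 279.7 and 333 CPM in the 3 dpa pools, with 15 of 32 tested and pvalb4 at 0. Leukocyte markers summed between 10042 and 14819 CPM in the 2 dpa pools and between 11478 and 15228 CPM in the 3 dpa pools, with 40 of 50 tested and c1qc at 0.

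Genes of mineralised matrix were among the strongest rises. The secretory calcium-binding phosphoproteins are an acidic family that binds calcium in bone, dentine and enamel-like tissue. Of 8 tested members, 3 rose and 1 fell, with a median log2 change of 2.22 against 0.01 for all genes. Of this family 4 rose and 1 fell without replicate 2 of 2 dpa, and 2 to 3 rose and none fell without 1 of the other 5 libraries. The gene scpp5 (ENSDARG00000078622) stood at 4.13, 7.25 and 0.625 CPM at 2 dpa and 99.8, 84.3 and 112 CPM at 3 dpa. All 3 dpa pools lay far above the highest 2 dpa pool, replicate 2. Its rise was 24.3-fold (log2 change 4.60 ± 0.69, adjusted p = 0.00394), and the log2 change ran from 4.07 (without 2 dpa replicate 3) to 5.27 (without 2 dpa replicate 2). The ameloblastin gene ambn stood at 0.855, 1.46 and 0.703 CPM at 2 dpa and 22.5, 13.4 and 26.3 CPM at 3 dpa, a 20.3-fold rise (log2 change 4.34 ± 0.47, adjusted p = 9.88e-04; 4.69 ± 0.54, adjusted p = 4.16e-04 without replicate 2 of 2 dpa). It was low in every 2 dpa library, replicate 2 included.

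The family member scpp7 stood at 4.48, 4.46 and 0.625 CPM at 2 dpa and 61.3, 14.5 and 68.1 CPM at 3 dpa, where replicate 2 of 3 dpa was the lowest of its stage (log2 change 3.87 ± 0.72, adjusted p = 0.0110). Its call was lost without replicate 1 of 2 dpa (adjusted p = 0.0502). The enamelin gene enam, with 181, 702 and 23.2 CPM at 2 dpa and 2823, 1115 and 2907 CPM at 3 dpa, was far more spread within 2 dpa and was called only without replicate 2 (adjusted p = 0.125 with it and 0.0237 without). Against the family, spp1 fell from 112, 55.7 and 87.1 CPM to 36.3, 26.9 and 36.8 CPM (log2 change -1.35 ± 0.29, adjusted p = 0.0219). This gene encodes osteopontin, which is made by osteoblasts and by macrophages, and its call held only without replicate 2 of 2 dpa among the fits that left out 1 library (highest adjusted p 0.0965). Uncut fins held 0.715 ± 1.02 CPM of scpp5 and 1.02 ± 0.564 CPM of ambn (mean ± SD, n = 3), so both were lower there than at 3 dpa, and 10 dpa fins held 31.2 ± 10.00 and 6.81 ± 3.54 CPM.

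Of 25 tested osteoblast and bone matrix genes 6 rose and 1, spp1, fell (median log2 change 0.95). Of this list 12 rose and 1 fell without replicate 2 of 2 dpa, and 1 to 6 rose and none fell without 1 of the other 5 libraries. SP7 (ENSDARG00000019516), the transcription factor osterix that commits cells to the osteoblast lineage, stood at 12.7, 24.03 and 6.80 CPM at 2 dpa and 63.6, 41.3 and 79.7 CPM at 3 dpa. The groups did not overlap, but replicate 2 of 2 dpa was the highest and replicate 2 of 3 dpa the lowest of its stage. The log2 change was 2.08 ± 0.39 (adjusted p = 0.0120), and 2.63 ± 0.37, adjusted p = 9.00e-04 without that 2 dpa library. PANX3, a channel protein of osteoblasts, went from 9.61, 27.6 and 1.64 CPM to 191, 83.5 and 174 CPM, and ENTPD5, a nucleotidase required for mineralisation in zebrafish, from 9.66, 36.7 and 4.92 CPM to 203, 101 and 163 CPM. Replicate 2 was the highest 2 dpa library and the lowest 3 dpa library for both. PTH1R, the receptor of parathyroid hormone, and POSTN, periostin, rose as well (log2 change 1.77 and 2.60). The earlier factors RUNX2 (ENSDARG00000040261; log2 change 0.27 ± 0.40, adjusted p = 0.853) and runx2b (0.61 ± 0.34, adjusted p = 0.449) were not called. The osteocalcin gene bglap had no count in the 6 libraries. With 1 library left out the highest adjusted p of SP7 was 0.0580. PANX3 and ENTPD5 lost theirs without replicate 1 or 3 of either stage (highest adjusted p 0.133 and 0.119).

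Type X collagen, a marker of hypertrophic cartilage that is expressed by osteoblasts in zebrafish, showed how far replicate 2 decided a call. COL10A1 stood at 149.8, 1372 and 75.8 CPM at 2 dpa and 3316, 4108 and 3785 CPM at 3 dpa. The groups did not overlap, and replicate 2 held several times the level of the other 2 dpa pools. With all libraries the log2 change was 2.81 ± 0.97 (adjusted p = 0.147), and without replicate 2 it was 5.04 ± 0.90, adjusted p = 0.00471.

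The actinodins form actinotrichia together with collagens. Transcripts of and1 (ENSDARG00000088514) stood at 6294, 5128 and 1794 CPM at 2 dpa and 28385, 11506 and 31032 CPM at 3 dpa, and those of and2 at 701, 1882 and 63.8 CPM at 2 dpa and 7588, 3891 and 7649 CPM at 3 dpa. Both genes were higher in each 3 dpa pool than in any 2 dpa pool, and the third 2 dpa pool was the lowest. The rise of and1 only just passed (log2 change 2.42 ± 0.63, adjusted p = 0.0470) and did not pass without replicate 2 of 2 dpa (2.53, adjusted p = 0.0680), nor without any of replicate 1 or 3 of either stage (highest adjusted p 0.191). For and2 the order was the opposite, with an adjusted p of 0.109 with the library and 0.0300 without it. The low-level and3 (1.16, 0.266 and 0.234 CPM at 2 dpa and 9.07, 2.71 and 8.14 CPM at 3 dpa) rose in both fits (log2 change 3.43 ± 0.62, adjusted p = 0.00964). The hemicentin gene HMCN1, which encodes an extracellular matrix protein of epithelial junctions, went from 16.5, 31.02 and 5.47 CPM to 97.1, 131 and 52.5 CPM (log2 change 2.40 ± 0.49, adjusted p = 0.0165) and was lost without replicate 1 of 2 dpa or replicate 2 of 3 dpa (highest adjusted p 0.0773). In all, 3 of the 12 tested genes of actinotrichia and fin fold matrix rose and none fell (median log2 change 0.79; 1.61 without replicate 2 of 2 dpa). Of this list 5 rose and none fell without that library, and 1 to 2 rose and none fell without 1 of the other 5 libraries.

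The genes of fibrillar collagens, the main fibres of connective tissue and bone, had a positive median without a call. None of 12 tested passed in edgeR with all libraries and 6 had an unadjusted p under 0.05, while 11 had a positive log2 change, the median was 0.94, and in 7 the 3 dpa libraries all lay above the 2 dpa libraries, as they did for 11.8% of all genes. Without replicate 2 of 2 dpa 4 rose, col5a2b, COL11A1, COL11A2 and 1 identifier of COL2A1, and DESeq2 called COL11A1 with all libraries, but without 1 of the other 5 libraries edgeR called none. The type I collagen gene col1a1a stood at 16818, 29393 and 12585 CPM at 2 dpa and 53221, 37480.4 and 46907 CPM at 3 dpa, and its log2 change was 1.23 ± 0.48 (adjusted p = 0.214; 0.0768 without that library). COL11A2, a minor chain that starts fibrils, stood at 52.6, 165 and 29.5 CPM at 2 dpa and 355, 321 and 359.8 CPM at 3 dpa and was called only without replicate 2 (adjusted p = 0.109 with it and 0.0163 without). Among 19 other collagens 3 rose and none fell. By comparison 12 rose and none fell without replicate 2 of 2 dpa, and 2 rose and none fell without 1 of the other 5 libraries. The 3 were COL8A2 (1.71, 1.46 and 1.25 CPM at 2 dpa and 10.1, 3.43 and 10.1 CPM at 3 dpa), col14a1b (1.86, 2.46 and 2.27 CPM at 2 dpa and 11.5, 4.40 and 13.2 CPM at 3 dpa) and col6a1 (188, 492 and 101 CPM at 2 dpa and 1039, 719 and 964 CPM at 3 dpa). Only in col6a1 did replicate 2 of 2 dpa lie well above the other 2 pools of its stage, and the call of col6a1 was lost without any 1 of the other 5 libraries (highest adjusted p 0.165). Uncut fins held 74.3 ± 17.9 CPM of COL8A2 and 48.5 ± 14.5 CPM of col14a1b, far above every 3 dpa pool. For col6a1 they held 543 ± 232 CPM, below the 3 dpa mean of 907 CPM.

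Enzymes that process collagen had the same direction and several calls. Of 36 tested genes for collagen folding, processing and cross-linking 8 rose and none fell (median log2 change 0.89), and 34 changes were positive. The calls moved both ways, as they did over all genes. On this list 21 rose and none fell without replicate 2 of 2 dpa, and 4 to 7 rose and none fell without 1 of the other 5 libraries. Lysyl oxidase (LOX, ENSDARG00000003259), which cross-links collagen and elastin, stood at 9.46, 13.6 and 10.7 CPM at 2 dpa and 178, 68.8 and 143 CPM at 3 dpa. The 3 pools of 2 dpa lay close together and the lowest 3 dpa pool was replicate 2. Its rise was 11.5-fold (log2 change 3.52 ± 0.46, adjusted p = 0.00223), with a log2 change from 3.23 (without 3 dpa replicate 1) to 3.80 (without 3 dpa replicate 2). The related LOXL1 stood at 2.01, 3.39 and 1.80 CPM at 2 dpa and 18.3, 13.6 and 23.2 CPM at 3 dpa, a 7.61-fold rise (log2 change 2.93 ± 0.28, adjusted p = 9.26e-04). Both held in every fit that left out 1 library (highest adjusted p 0.0184 and 0.00660) and with the 6 libraries alone (adjusted p = 0.0300 for each). The list's other rises were pcolcea, which enhances removal of the procollagen C-propeptide (4.38, 15.4 and 3.20 CPM at 2 dpa and 64.99, 31.9 and 86.97 CPM at 3 dpa), ADAMTS3, which removes the N-propeptide (12.1, 25.4 and 4.53 CPM at 2 dpa and 85.2, 69.2 and 71.5 CPM at 3 dpa), PCOLCE2, the tolloid-like protease TLL1, the lysyl hydroxylase PLOD1 and the prolyl hydroxylase P4HA1. For pcolcea and ADAMTS3 replicate 2 of 2 dpa was the highest of its stage, yet below each 3 dpa pool. LOX and LOXL1 stood at 36.2 ± 25.8 and 37.9 ± 4.84 CPM in uncut fins and at 159 ± 29.8 and 51.03 ± 7.26 CPM at 10 dpa, so both 2 dpa levels were below those of the uncut fin.

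The interstitial matrix changed in both directions. Of 29 tested proteoglycan genes 7 rose and none fell. The list includes the small leucine-rich proteoglycans, which bind collagen fibrils and growth factors, but is not limited to them. In smaller fits 9 rose and none fell without replicate 2 of 2 dpa, and 1 to 6 rose and none fell without 1 of the other 5 libraries. Lumican (LUM, ENSDARG00000045580) stood at 149, 144 and 33.4 CPM at 2 dpa and 732, 323 and 657 CPM at 3 dpa, and PRELP, which ties collagen to basement membranes, at 76.7, 84.1 and 42.4 CPM at 2 dpa and 365, 237 and 251 CPM at 3 dpa. In both the lowest pool was replicate 3 of 2 dpa and no pools of the stages overlapped (log2 change 2.39 ± 0.47, adjusted p = 0.0130; 2.07 ± 0.31, adjusted p = 0.00404). The call of LUM was lost without replicate 3 of 3 dpa (adjusted p = 0.0555). DCN (decorin), OMD (osteomodulin), 2 identifiers of FMOD (fibromodulin) and 1 of BGN (biglycan) made up the rest.

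Of 45 tested genes of provisional matrix and matricellular proteins 10 rose and 1 fell (median log2 change 0.97). In fits with fewer libraries 24 rose and 1 fell without replicate 2 of 2 dpa, but 1 to 10 rose and 0 to 1 fell without 1 of the other 5 libraries. Fibronectin (ENSDARG00000006526, symbol FN1), the first matrix of a wound, was that fall. It stood at 41865, 16524 and 41837 CPM at 2 dpa and 13067, 9576 and 11404 CPM at 3 dpa. Replicate 2 of 2 dpa lay between the other 2 dpa pools and those of 3 dpa, and the fall was 2.94-fold (log2 change -1.56 ± 0.36, adjusted p = 0.0293; -1.89 ± 0.30, adjusted p = 0.00177 without it). The rises included hapln1a, the link protein that fixes proteoglycans to hyaluronan (85.4, 157 and 40.9 CPM at 2 dpa and 429.7, 316 and 302 CPM at 3 dpa), the versican gene vcanb, the thrombospondin gene THBS3 (ENSDARG00000012060) and CTHRC1, a secreted protein of collagen-making cells. The list's summed level, which includes FN1, lay between 30112 and 52986 CPM in the 2 dpa pools and between 26674 and 30403 CPM in the 3 dpa pools, and the ranges met at replicate 2 of 2 dpa. The call of FN1 was lost without any 1 library other than replicate 2 of 2 dpa (highest adjusted p 0.127).

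Metalloproteinases cleave matrix and release growth factors. Of 43 tested proteinases and inhibitors 13 rose and none fell (median log2 change 0.89). Without replicate 2 of 2 dpa 19 rose and 1 fell. Without 1 of the other 5 libraries 6 to 12 rose and none fell. MMP11 (ENSDARG00000026325), a stromal proteinase, stood at 7.35, 13.3 and 13.1 CPM at 2 dpa and 71.9, 48.1 and 84.5 CPM at 3 dpa, with replicate 1 the lowest of 2 dpa (6.08-fold, log2 change 2.60 ± 0.47, adjusted p = 0.00987). An identifier of ADAMTS15, a proteoglycan-cleaving enzyme (ENSDARG00000033544), was low at 2 dpa with 0.302, 0.333 and 0.469 CPM and reached 4.48, 2.30 and 5.94 CPM. The collagenase mmp13a went from 38.7, 78.5 and 45.9 CPM to 179, 87.8 and 263 CPM, and adam19b from 4.43, 9.32 and 2.34 CPM to 44.2, 26.01 and 33.6 CPM. The membrane-anchored inhibitor RECK rose too (log2 change 1.33 ± 0.31, adjusted p = 0.0312). Calls were lost without replicate 1 of 2 dpa for MMP11 (adjusted p = 0.0515) and without replicate 1 or 3 of either stage for mmp13a (highest adjusted p 0.219).

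Basement membrane genes split. Of 37 tested 4 rose and 2 fell. By comparison 9 rose and 2 fell without replicate 2 of 2 dpa, and 1 to 3 rose and 0 to 1 fell without 1 of the other 5 libraries. Nidogen (NID1), HMCN1 and the laminin chain genes LAMB2 (3.37, 2.60 and 1.72 CPM at 2 dpa and 9.42, 8.20 and 4.72 CPM at 3 dpa) and lamb4 (5.53, 5.79 and 7.35 CPM at 2 dpa and 14.1, 9.57 and 21.6 CPM at 3 dpa) rose. The epidermal laminin chain gene lamb3 fell from 170.1, 144 and 199 CPM to 57.8, 65.9 and 49.2 CPM, and itga3a, which encodes a laminin-binding integrin chain, from 53.1, 64.03 and 53.6 CPM to 26.1, 38.4 and 28.9 CPM. No pools of the stages overlapped for either fall (log2 change -1.57 ± 0.37, adjusted p = 0.0320 and log2 change -0.87 ± 0.19, adjusted p = 0.0261), and neither held without replicate 1 or 3 of either stage, nor lamb3 without replicate 2 of 3 dpa (highest adjusted p 0.153 and 0.131).

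**Figure D3:**
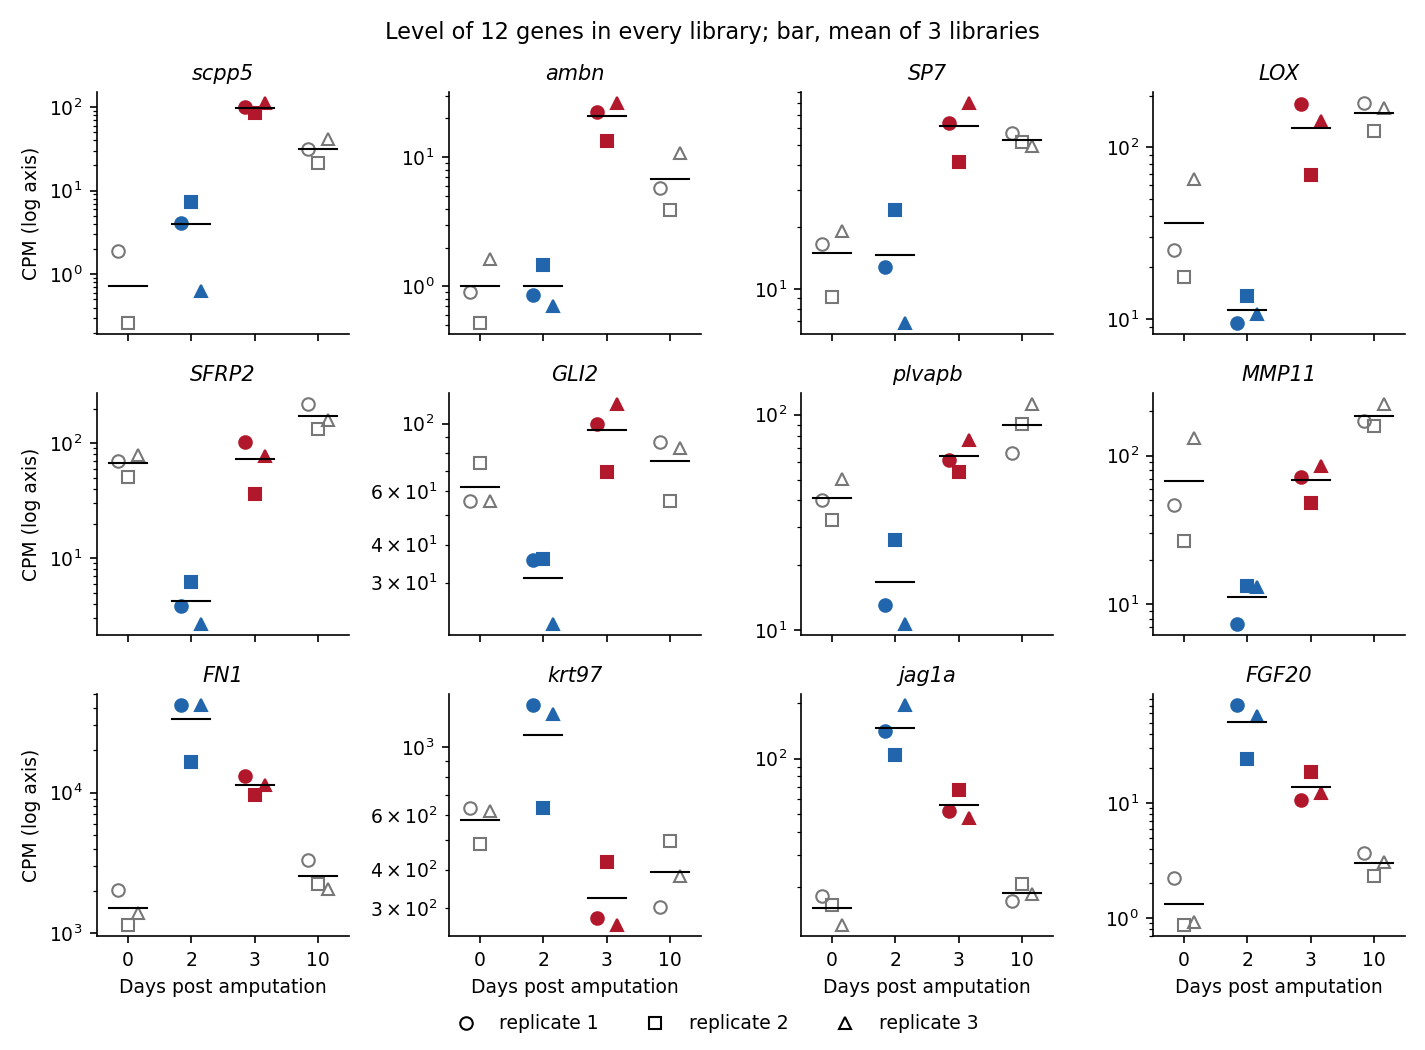
Level of 12 genes in every library in CPM (log axis) by days post amputation; filled symbols are the pools of 2 dpa (blue) and 3 dpa (red), open symbols those of 0 and 10 dpa, symbol shape gives the replicate and bars are means of 3. Both upper rows lie higher at 3 dpa and the lower row lies lower, with replicate 2 (squares) of 2 dpa often nearest to 3 dpa; 1 value of 0 CPM, scpp5 in replicate 3 of 0 dpa, cannot be drawn on the axis.

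Among signalling genes, the Wnt list held rises of inhibitors and of activating genes. Of 64 tested 12 rose and 1 fell (median log2 change 0.29). In smaller fits 14 rose and 2 fell without replicate 2 of 2 dpa, and 4 to 11 rose and none fell without 1 of the other 5 libraries. SFRP2 (ENSDARG00000070050), a secreted protein that binds Wnt ligands, stood at 3.82, 6.26 and 2.66 CPM at 2 dpa and 103, 35.8 and 77.99 CPM at 3 dpa. All 3 pools of 3 dpa lay several times above every 2 dpa pool, and replicate 2 was the lowest of 3 dpa. The rise was 16.9-fold (log2 change 4.08 ± 0.41, adjusted p = 9.87e-04; 4.44 ± 0.46, adjusted p = 2.50e-04 without replicate 2 of 2 dpa), with a log2 change from 3.74 (without 3 dpa replicate 1) to 4.44 (without 2 dpa replicate 2). Uncut fins held 66.6 ± 14.3 CPM, within the range of the 3 dpa pools. A pair of SFRP1 identifiers rose as well, ENSDARG00000057678 from 16.2, 23.6 and 4.92 CPM to 71.2, 69.6 and 71.1 CPM and ENSDARG00000035521 from 58.97, 43.3 and 31.8 CPM to 169, 75.8 and 160.1 CPM. Further rises were the antagonist genes frzb (1.41, 2.13 and 0.391 CPM at 2 dpa and 7.23, 3.80 and 8.14 CPM at 3 dpa), dkk1a (3.42, 5.39 and 1.80 CPM at 2 dpa and 11.5, 13.00 and 14.6 CPM at 3 dpa) and APCDD1L (3.37, 5.39 and 1.72 CPM at 2 dpa and 20.8, 12.3 and 24.7 CPM at 3 dpa), and the feedback inhibitor gene NKD1, which was not called without replicate 2 of 2 dpa (adjusted p = 0.0635). Replicate 3 of 2 dpa was the lowest pool for frzb, dkk1a and APCDD1L, and the highest adjusted p of these 3 with 1 library left out was 0.0484, 0.0905 and 0.0223. On the activating side WNT11, the receptor genes FZD7 and FZD9 (1 identifier each), the target gene SP5 and dvl2, which relays the signal, rose. WNT7A (ENSDARG00000044827) fell from 22.2, 11.4 and 22.4 CPM to 8.38, 8.76 and 8.37 CPM (log2 change -1.13 ± 0.28, adjusted p = 0.0397), a call that held only without replicate 2 of 2 dpa among these fits (highest adjusted p 0.156). The transcription factor LEF1 (log2 change 0.32 ± 0.26, adjusted p = 0.657) and the ligand gene WNT10A (-0.40 ± 0.22, adjusted p = 0.429) were not called.

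Hedgehog signals act on target genes through Gli transcription factors, and hhip is itself a target of the signal. Of 19 tested genes 6 rose and none fell (median log2 change 0.64). Without replicate 2 of 2 dpa 9 rose and 1 fell. Without 1 of the other 5 libraries 3 to 6 rose and none fell. HHIP (ENSDARG00000060397), which binds and sequesters the ligand, stood at 8.86, 13.04 and 5.78 CPM at 2 dpa and 17.9, 19.9 and 18.6 CPM at 3 dpa (log2 change 1.03 ± 0.25, adjusted p = 0.0394). A GLI2 identifier (ENSDARG00000020884) stood at 35.5, 35.9 and 21.9 CPM at 2 dpa and 99.9, 69.5 and 116 CPM at 3 dpa (log2 change 1.61 ± 0.26, adjusted p = 0.00669), while the other tested GLI2 identifier was not called (log2 change -0.21). For HHIP and the called GLI2 identifier every 3 dpa pool lay above every 2 dpa pool and replicate 3 of 2 dpa was the lowest. The co-receptor genes BOC and GAS1 (1 identifier) and SCUBE1, of a family of secreted proteins, rose as well. With 1 library left out the highest adjusted p was 0.0353 for GLI2 and 0.187 for HHIP. Of the ligands, ihha stood at 3.07, 9.45 and 3.36 CPM at 2 dpa and 12.9, 9.33 and 11.3 CPM at 3 dpa and was called only without replicate 2 of 2 dpa (adjusted p = 0.131 with it and 0.00114 without), and the identifier of SHH was not called (log2 change 0.87 ± 0.39, adjusted p = 0.295).

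On the list of Bmp and activin genes 11 of 68 tested rose and 2 fell (16.2% and 2.94%, against 3.28% and 0.494% of all genes; median log2 change 0.18). By comparison 17 rose and 3 fell without replicate 2 of 2 dpa, and 5 to 12 rose and none fell without 1 of the other 5 libraries. Ligands moved both ways. GDF5 (ENSDARG00000002760), a growth factor of joints, was at 0.101, 0 and 0 CPM at 2 dpa, 2 counts in all, and at 1.72, 0.565 and 2.74 CPM at 3 dpa. The ratio of summed counts was 33.3, with a 95% interval from 8.84 to 280.4 that covers counting error only, and the uncut fin held 11.9 ± 2.66 CPM. TGFB3 went from 34.8, 35.7 and 31.5 CPM to 191, 60.7 and 184 CPM, with replicate 2 the lowest of 3 dpa, BMP4 from 32.7, 41.1 and 25.4 CPM to 57.4, 53.9 and 86.8 CPM, and BMP3 from 4.08, 5.52 and 1.64 CPM to 13.2, 8.68 and 15.98 CPM. Both identifiers of GDF10 rose, ENSDARG00000073891 from 0.252, 1.20 and 0 CPM to 8.27, 6.99 and 17.4 CPM. With 1 library left out the highest adjusted p was 0.0610 for TGFB3, 0.144 for BMP4 and 0.0716 for BMP3. The antagonist genes nog2 and chrdl2, the Bmp-responsive genes id2b and msx1b, and TGFBI, a matrix gene induced by TGF-beta, rose with them, though nog2 was not called without replicate 2 of 2 dpa (adjusted p = 0.0505). INHBA (ENSDARG00000024759), the activin subunit gene whose zebrafish form is needed for fin regrowth, fell from 139, 95.3 and 103 CPM to 59.6, 40.1 and 51.2 CPM (log2 change -1.16 ± 0.28, adjusted p = 0.0343). The ligand gene bmp7a fell from 12.9, 7.19 and 12.3 CPM to 3.33, 2.26 and 3.73 CPM (3.52-fold, log2 change -1.81 ± 0.42, adjusted p = 0.0290). The pools of the stages did not overlap for these falls, both were already low in uncut fins, with 7.99 ± 3.04 and 0.784 ± 0.488 CPM, and neither call held without any 1 library other than replicate 2 of 2 dpa (highest adjusted p 0.135 and 0.106).

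The Fgf list held 5 rises and 1 fall among 34 tested genes (14.7% and 2.94%, against 3.28% and 0.494% of all genes). In smaller fits 7 rose and 1 fell without replicate 2 of 2 dpa, and 1 to 2 rose and 0 to 1 fell without 1 of the other 5 libraries. The fall was FGF20 (ENSDARG00000007356). In zebrafish fgf20a is required for a blastema to form, though the symbol does not say which paralog this identifier is. It stood at 71.00, 23.9 and 57.6 CPM at 2 dpa and 10.6, 18.5 and 12.3 CPM at 3 dpa, where replicate 2 of 2 dpa lay close to the 3 dpa pools (3.65-fold fall, log2 change -1.87 ± 0.38, adjusted p = 0.0167; -2.21 ± 0.31, adjusted p = 9.00e-04 without it). It was lost without replicate 1 or 3 of either stage (highest adjusted p 0.0921). The receptor genes fgfr4 (8.86, 9.25 and 4.45 CPM at 2 dpa and 24.5, 14.98 and 28.5 CPM at 3 dpa) and FGFR3, the carrier gene fgfbp2a, FGF13 (1 identifier) and FLRT3 rose, and of these FGFR3 was not called without replicate 2 of 2 dpa (adjusted p = 0.0670). The largest of these rises by log2 change, fgfbp2a, FGF13 and fgfr4, stood at 1138.5 ± 424, 8.46 ± 2.43 and 83.4 ± 8.98 CPM in uncut fins. Their 3 dpa means, 52.6, 2.43 and 22.7 CPM, were below these.

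Of 27 tested retinoic acid genes 5 rose and none fell. Without replicate 2 of 2 dpa 5 rose and none fell. Without 1 of the other 5 libraries 1 to 4 rose and none fell. CYP26B1 (ENSDARG00000077121), which degrades retinoic acid, stood at 39.9, 80.7 and 55.3 CPM at 2 dpa and 163, 117 and 146 CPM at 3 dpa (highest adjusted p with 1 library left out 0.0759), and 2 identifiers of DHRS3, a reductase of retinaldehyde, rose, along with 1 of CRABP1, a binding protein, and NR2F1, a nuclear receptor. The synthesis gene ALDH1A2 was not called (log2 change -0.38 ± 0.21, adjusted p = 0.437).

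Notch genes showed no common direction, with 1 rise and 2 falls among 32 tested and a median log2 change of 0.02. The share that rose, 3.125%, was near the 3.28% of all genes, while 6.25% fell against 0.494% of all genes. Without replicate 2 of 2 dpa 2 Notch genes rose and 3 fell. Without 1 of the other 5 libraries 0 to 1 rose and 1 to 2 fell. The ligand gene jag1a (ENSDARG00000030289) fell from 141, 105 and 196 CPM to 51.6, 67.6 and 47.7 CPM. Its pools did not overlap, and the 2.64-fold fall (log2 change -1.40 ± 0.24, adjusted p = 0.00760) held in every fit that left out 1 library (highest adjusted p 0.0484). LFNG, which modifies Notch receptors, fell from 119, 89.1 and 67.4 CPM to 45.7, 47.2 and 42.8 CPM, and the vessel ligand gene dll4 rose from 8.40, 9.45 and 6.49 CPM to 13.1, 13.6 and 15.5 CPM. Both of these missed the threshold in at least 4 of the fits with 1 library left out (highest adjusted p 0.136 and 0.223). Of 22 tested Igf genes 2 rose and 1 fell (9.09% and 4.55%, against 3.28% and 0.494% of all genes). By comparison 2 rose and 2 fell without replicate 2 of 2 dpa, and 2 to 3 rose and 0 to 1 fell without 1 of the other 5 libraries. Among them igf2a, a growth factor gene, rose from 7.70, 10.2 and 7.50 CPM to 40.1, 21.4 and 29.7 CPM (log2 change 1.84 ± 0.23, adjusted p = 0.00174) and held in all such fits (highest adjusted p 0.0127), as did the glycoprotein gene STC2. The binding protein gene igfbp6b fell from 72.2, 33.6 and 110.0 CPM to 22.4, 16.96 and 11.3 CPM (log2 change -2.10 ± 0.45, adjusted p = 0.0209; highest adjusted p 0.111).

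Of 60 tested transcription factors of the blastema and of fin pattern 11 rose and 1 fell, 50 changes were positive (median log2 change 0.69). Here too the calls moved both ways, as they did over all genes. On this list 21 rose and 1 fell without replicate 2 of 2 dpa, and 3 to 9 rose and none fell without 1 of the other 5 libraries. Named by size, hoxd13a stood at 0.352, 1.13 and 0.234 CPM at 2 dpa and 2.76, 1.74 and 2.43 CPM at 3 dpa, LHX9 at 10.7, 9.52 and 4.92 CPM at 2 dpa and 39.04, 14.5 and 42.2 CPM at 3 dpa and foxd1 at 14.8, 17.2 and 6.33 CPM at 2 dpa and 42.03, 34.4 and 55.5 CPM at 3 dpa. For LHX9 replicate 2 of 3 dpa was near the 2 dpa pools, while foxd1 lay well apart between the stages and held in all 6 fits with 1 library left out (highest adjusted p 0.0383). The posterior Hox genes HOXC12 and HOXC13, DLX1, ALX4, sall3b, snai2 and msx1b, a marker of the blastema, rose as well. The symbol TBX2 stood on both sides: ENSDARG00000018025 rose and ENSDARG00000006120 fell from 9.76, 7.19 and 10.7 CPM to 4.94, 4.68 and 4.49 CPM. The calls of hoxd13a and LHX9 were lost without replicate 1 or 3 of either stage, and that of hoxd13a also without replicate 2 of 3 dpa (highest adjusted p 0.182 and 0.132).

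Of 39 tested vessel genes 14 rose and none fell, 35 changes were positive, and the median log2 change was 1.03. Over the other fits 19 rose and 1 fell without replicate 2 of 2 dpa, and 4 to 12 rose and none fell without 1 of the other 5 libraries. The endothelial gene plvapb (ENSDARG00000045003), which forms the diaphragms of capillary pores, stood at 13.1, 26.2 and 10.6 CPM at 2 dpa and 61.4, 53.9 and 76.7 CPM at 3 dpa (3.84-fold, log2 change 1.94 ± 0.32, adjusted p = 0.00689). The endothelial transcription factor gene sox18 stood at 10.1, 10.8 and 6.17 CPM at 2 dpa and 42.1, 17.5 and 40.9 CPM at 3 dpa and the vessel growth factor gene angpt2b at 1.51, 3.13 and 0.469 CPM at 2 dpa and 14.6, 7.79 and 15.1 CPM at 3 dpa. Replicate 3 was the lowest 2 dpa pool for all 3 genes, and replicate 2 the lowest of 3 dpa. The receptor genes KDR (8.81, 16.4 and 4.92 CPM at 2 dpa and 36.97, 24.5 and 30.2 CPM at 3 dpa), TIE1 and stab2, the factors FLI1 and ERG, vwf, ESAM, 1 identifier of CLDN5 and dll4 rose, as did TAGLN and RGS5, which mark the muscle cells and pericytes around vessels. All 3 genes given in full held in every fit with 1 library left out (highest adjusted p 0.0368, 0.0443 and 0.0445).

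Of 28 tested pigment cell genes 4 rose, from low levels, and 1 fell. TYR, the first enzyme of melanin synthesis, went from 0.453, 1.06 and 0.469 CPM to 2.76, 1.09 and 3.35 CPM, SLC24A5, a melanosome exchanger, from 0.906, 2.40 and 0.234 CPM to 7.58, 4.00 and 4.57 CPM, and aox5, of yellow pigment cells, from 0.302, 1.46 and 0.0782 CPM to 4.02, 2.46 and 3.58 CPM. The pools did not overlap, though for TYR the replicates numbered 2 of both stages nearly met, and no call of the 3 held without replicate 1 or 3 of either stage, nor that of SLC24A5 without replicate 2 of 3 dpa (highest adjusted p 0.213, 0.157 and 0.120). In all 11 rose and 2 fell without replicate 2 of 2 dpa, and 0 to 7 rose and 0 to 1 fell without 1 of the other 5 libraries. With all libraries the fall was in the endothelin receptor EDNRB (ENSDARG00000053498), from 50.1, 24.7 and 58.2 CPM to 15.7, 18.9 and 15.1 CPM, a receptor that pigment and other cells use (highest adjusted p with 1 library left out 0.111).

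Of 62 tested epidermis genes 1 rose (1.61%, against 3.28% of all genes) and 3 fell (4.84%, against 0.494%), and 40 changes were negative (median log2 change -0.09). In smaller fits 1 rose and 9 fell without replicate 2 of 2 dpa, and 0 to 1 rose and 0 to 2 fell without 1 of the other 5 libraries. The keratin gene krt97 (ENSDARG00000000212) stood at 1366, 635 and 1274 CPM at 2 dpa and 279, 424 and 264 CPM at 3 dpa (3.38-fold fall, log2 change -1.76 ± 0.31, adjusted p = 0.00845). The 3 dpa pools lay below the mean of uncut fins (580.3 ± 82.4 CPM). The surface keratin gene krt4 stood at 10192, 6080.2 and 15594 CPM at 2 dpa and 3759.5, 4742 and 3152 CPM at 3 dpa, and krt18a.1, a simple-epithelium keratin, at 20462, 7993 and 17782 CPM at 2 dpa and 5821, 4629 and 4912 CPM at 3 dpa. Replicate 2 was the lowest 2 dpa pool for these 3 keratins and no pools overlapped. The calls of krt4 and krt18a.1 were lost without replicate 1 or 3 of either stage, that of krt18a.1 also without replicate 2 of 3 dpa (highest adjusted p 0.148 and 0.122), and that of krt97 without replicate 3 of 3 dpa (adjusted p = 0.0554). The rise was 1 identifier of JUP, a junction protein.

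**Figure D4:**
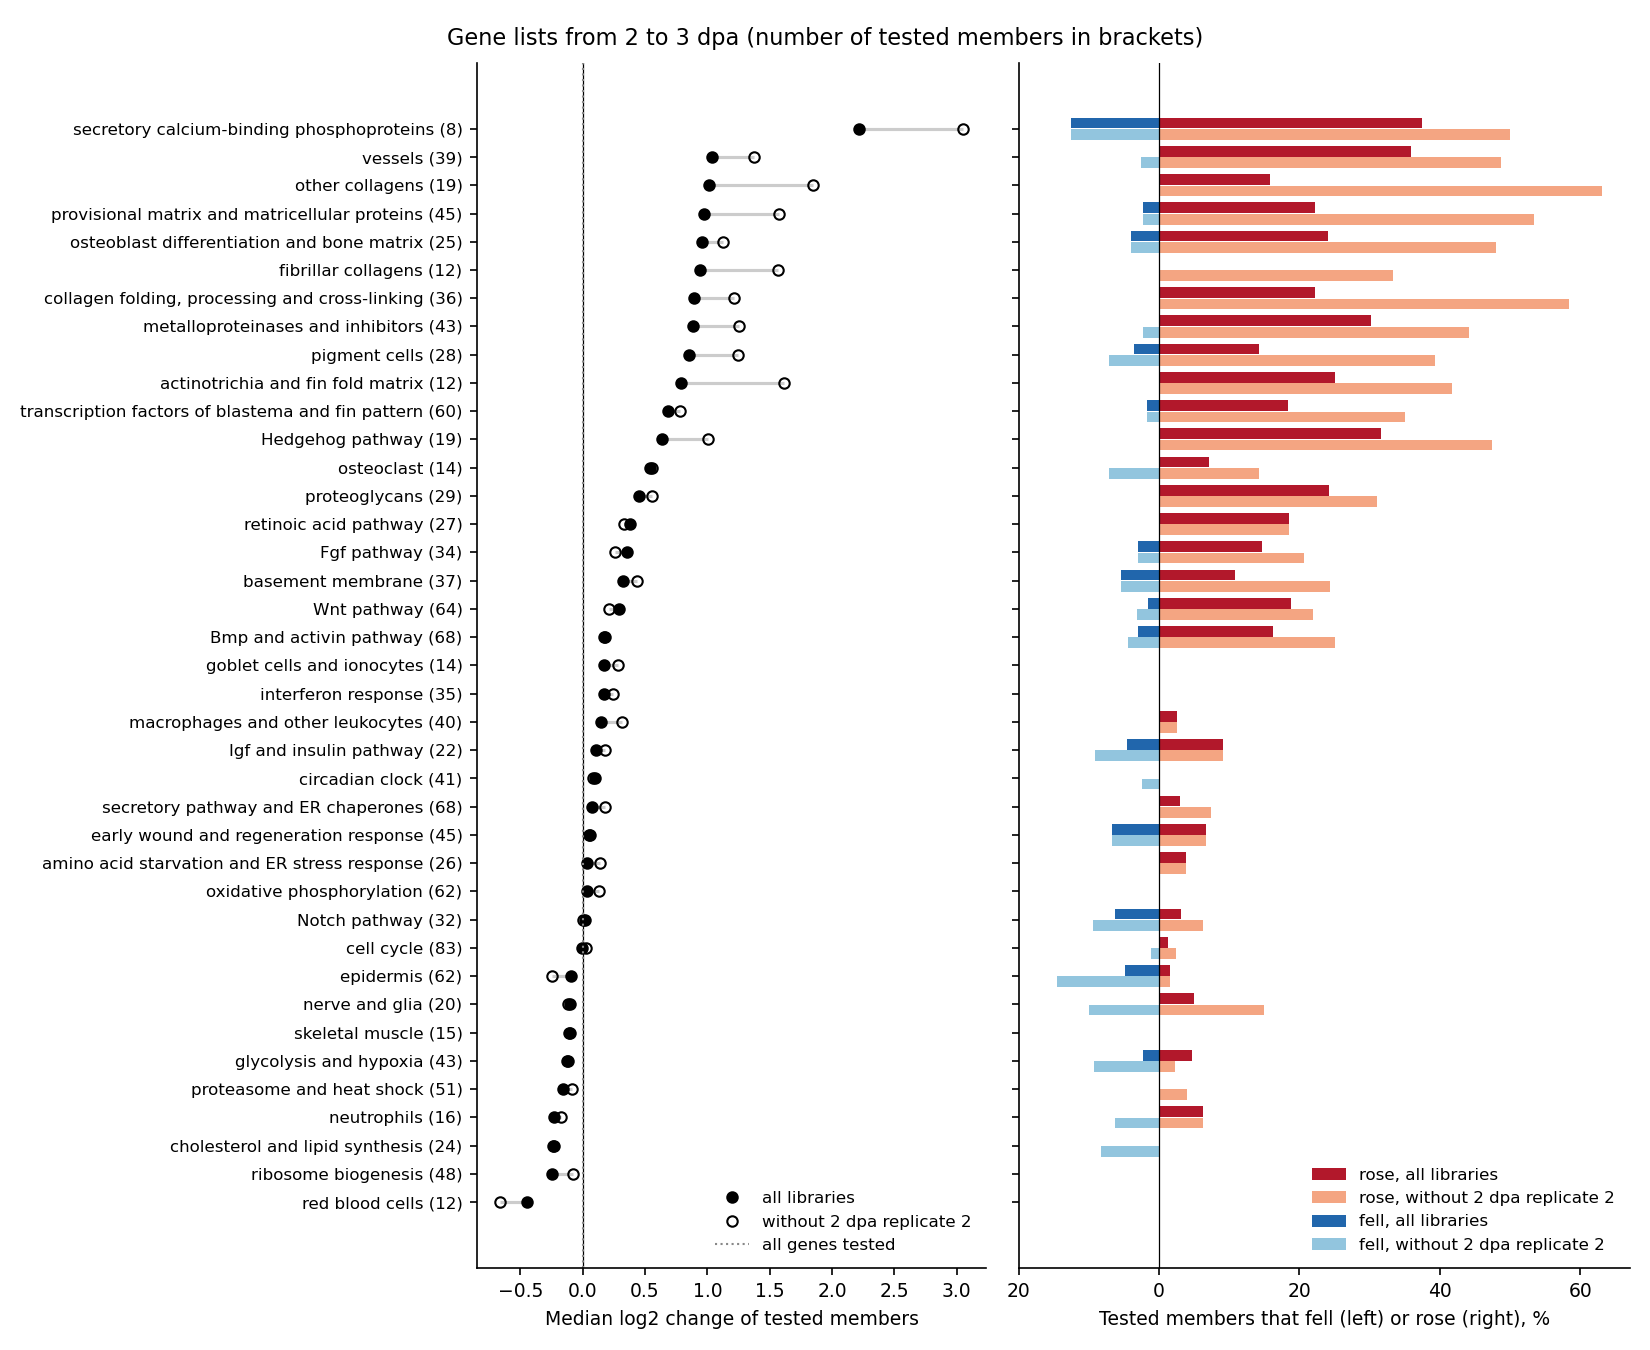
Gene lists of the comparison, with the median log2 change of tested members (left; filled, all libraries; open, without replicate 2 of 2 dpa) and the percentage of the members tested with all libraries that fell or rose (right). Vessels (1.03), other collagens (1.01) and provisional matrix (0.97) are among the highest medians, and each is higher without replicate 2 of 2 dpa.

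The early wound list of 45 tested genes had 3 rises and 3 falls (6.67% each, against 3.28% and 0.494% of all genes). Without replicate 2 of 2 dpa 3 rose and 4 fell. Without 1 of the other 5 libraries 2 to 3 rose and none fell. The cytokine gene il11a (ENSDARG00000037859), which is induced at the cut, fell from 36.3, 19.6 and 30.4 CPM to 15.7, 13.2 and 11.3 CPM (2.15-fold, log2 change -1.11 ± 0.25, adjusted p = 0.0267), and the clotting factor gene f5 from 157, 53.98 and 76.9 CPM to 24.7, 19.5 and 19.2 CPM (log2 change -2.19 ± 0.55, adjusted p = 0.0422). Uncut fins held 0.394 ± 0.162 and 1.32 ± 1.69 CPM, so both genes were still above that level at 3 dpa. The third fall was krt18a.1. The chemokine gene CXCL12 (ENSDARG00000037116) rose from 10.7, 10.2 and 5.08 CPM to 56.4, 30.05 and 51.1 CPM (5.25-fold, log2 change 2.39 ± 0.31, adjusted p = 0.00182) and held in all 6 fits with 1 library left out (highest adjusted p 0.00958), while il11a and f5 held only without replicate 2 of 2 dpa (highest adjusted p 0.144 and 0.182). The growth factor gene MDK (1 identifier) and the transcription factor gene JUN were the other rises, and JUN was lost without replicate 2 of 2 dpa (adjusted p = 0.0705) and without replicate 1 or 3 of either stage. In uncut fins CXCL12 stood at 77.2 ± 13.0 and JUN at 701 ± 236 CPM, above their 3 dpa means of 45.9 and 343 CPM. MDK stood there at 23.6 ± 5.08 CPM, within the range of the 3 dpa pools. The leptin gene lepb stood at 53.99, 65.4 and 37.4 CPM at 2 dpa and 60.4, 46.2 and 35.8 CPM at 3 dpa and was not called (log2 change -0.14 ± 0.37, adjusted p = 0.926).

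The lists of division and growth are set against the 3.28% of all genes that rose and the 0.494% that fell. Of 83 tested cell cycle genes 1 rose, cdkn1ca, which encodes an inhibitor of cyclin-dependent kinases (0.403, 1.20 and 0.313 CPM at 2 dpa and 1.95, 2.02 and 3.04 CPM at 3 dpa), and none fell (median log2 change -0.01). By comparison 2 rose and 1 fell without replicate 2 of 2 dpa, and none rose and 0 to 1 fell without 1 of the other 5 libraries. The proliferation markers mki67 and PCNA had log2 changes of -0.05 ± 0.19 and -0.19 ± 0.29 (adjusted p = 0.947 and 0.848). None of 48 ribosome biogenesis genes was called in edgeR (5 at an unadjusted p under 0.05, 2 called by DESeq2), while 44 had a negative log2 change (median -0.24; -0.08 without replicate 2 of 2 dpa). None of 62 oxidative phosphorylation genes was called in edgeR (2 at an unadjusted p under 0.05, 1 called by DESeq2), nor any of 41 clock genes (5 and 0). Of 68 genes of the secretory pathway 2 rose, KDELR2 and KDELR3, which return proteins to the endoplasmic reticulum. In smaller fits 5 rose and none fell without replicate 2 of 2 dpa, and 0 to 1 rose and none fell without 1 of the other 5 libraries. KDELR2 was not among the rises without that 2 dpa library (adjusted p = 0.0516). Of 43 glycolysis and hypoxia genes 2 rose, P4HA1 and 1 identifier of ADM, and 1 identifier of the enolase gene ENO1 fell. The balance of these few calls was the opposite without replicate 2 of 2 dpa, where 1 rose and 4 fell: ADM was not called (adjusted p = 0.0671), and both identifiers of ENO1, ALDOC and pgam1b, all of glycolytic enzymes, fell. The median log2 change of the list hardly moved, at -0.12 with all libraries and -0.11 without that library. With 1 of the other 5 libraries left out 0 to 1 rose and 0 to 1 fell. The interferon list had no call among 35 in edgeR or DESeq2 (3 at an unadjusted p under 0.05), and isg15 there stood at 12.6, 10.2 and 3.91 CPM at 2 dpa and 124, 7.75 and 7.00 CPM at 3 dpa, with 1 pool of 3 dpa far above the rest.

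Each immune and nerve list held at most 1 call with all libraries, where 3.77% of all genes were called. As a share, 1 call was 7.14% of the osteoclast, 6.25% of the neutrophil, 5.0% of the nerve and 2.5% of the leukocyte genes. Lists this small show neither an excess nor a lack of calls. The T cell gene cd8a went from 0.201, 0.599 and 0.625 CPM to 1.38, 5.45 and 2.66 CPM (log2 change 2.82 ± 0.56, adjusted p = 0.0142; highest adjusted p with 1 library left out 0.0709), the single call among 40 leukocyte genes. On the neutrophil list of 16 the call was mmp13a. The osteoclast list had 1 rise among 14, tnfrsf11a, the receptor RANK that drives osteoclast formation (18.01, 27.9 and 17.7 CPM at 2 dpa and 59.5, 37.4 and 69.7 CPM at 3 dpa, log2 change 1.39 ± 0.25, adjusted p = 0.00964; highest adjusted p with 1 library left out 0.0599). On the nerve list of 20 the call was 1 identifier of NCAM1. When replicate 2 of 2 dpa was left out, 2 rose and 1 fell on the osteoclast list, 3 rose and 2 fell on the nerve list, 1 rose and 1 fell on that of neutrophils and 1 rose and none fell on that of leukocytes. Over the 5 fits without 1 of the other libraries 0 to 2 rose and none fell, 1 rose and none fell, 0 to 1 rose and none fell and 0 to 1 rose and 0 to 1 fell on these lists in turn. No goblet cell, red blood cell or muscle gene was called in edgeR among 14, 12 and 15, of which 1, 0 and 2 had an unadjusted p under 0.05 and DESeq2 called 1, 0 and 1.

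Beyond the lists, the largest rises by the naming rule held enzymes and secreted proteins. CYP2R1 (ENSDARG00000056587), an enzyme that starts vitamin D activation, stood at 3.62, 4.53 and 0.703 CPM at 2 dpa and 102, 35.2 and 99.8 CPM at 3 dpa. Replicate 2 was the lowest of 3 dpa and still several times above the highest 2 dpa pool (26.1-fold, log2 change 4.71 ± 0.54, adjusted p = 0.00117; log2 change from 4.22 (without 2 dpa replicate 3) to 5.08 (without 2 dpa replicate 2)). The largest, ccn1l1 (ENSDARG00000035422), of the CCN family of matrix-associated proteins, had 3 counts over the 2 dpa pools and 222 over the 3 dpa pools (5.74, 3.27 and 6.92 CPM). The ratio of summed counts was 75.7, with a 95% interval from 25.6 to 369.9 for counting error only. BHMT (ENSDARG00000013430), which remethylates homocysteine, stood at 9.31, 20.8 and 1.33 CPM at 2 dpa and 199, 102 and 223 CPM at 3 dpa, and HPD, an enzyme of tyrosine breakdown, at 0.503, 0.333 and 0.313 CPM at 2 dpa and 5.97, 4.72 and 12.9 CPM at 3 dpa. Both were higher in uncut fins, with 318 ± 77.4 and 34.1 ± 5.26 CPM. The gene wfikkn2a, whose mammalian relative binds myostatin and GDF11, stood at 3.87, 3.99 and 0.469 CPM at 2 dpa and 57.3, 31.3 and 56.9 CPM at 3 dpa and at 2.19 ± 0.624 CPM in uncut fins. KLHL14, GALNT16, OLFM2, si:dkey-95h12.1 and si:dkey-202e22.2 completed the 15 with scpp5, scpp7, ambn, SFRP2 and GDF5. Of the 15, si:dkey-95h12.1 and scpp7 lost their call in a fit with 1 library left out (adjusted p up to 0.0518 and 0.0502). The rule itself required no overlap and a call without replicate 2 of 2 dpa, so only fits without another library could lose one.

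Many of the largest falls were of genes with few counts. DUSP13B (ENSDARG00000061498), a dual-specificity phosphatase, stood at 9.86, 1.46 and 3.83 CPM at 2 dpa and 0.689, 0.363 and 0.228 CPM at 3 dpa (12.5-fold, log2 change -3.64 ± 0.66, adjusted p = 0.00987). The gene adamtsl7, of secreted ADAMTS-like proteins, stood at 13.8, 2.40 and 28.4 CPM at 2 dpa and 2.07, 1.21 and 1.07 CPM at 3 dpa, where replicate 2 of 2 dpa was close to the 3 dpa pools. DDC, the decarboxylase that makes dopamine and serotonin, stood at 3.62, 2.20 and 7.19 CPM at 2 dpa and 0.344, 0.444 and 0.761 CPM at 3 dpa. The transporter gene abcc6a (ENSDARG00000016750), whose human relative limits mineral deposits in soft tissue, fell from 200.1, 101 and 143 CPM to 36.6, 47.5 and 24.7 CPM (4.07-fold, log2 change -2.03 ± 0.29, adjusted p = 0.00332). Of the 14 falls described, it alone held in all 6 fits with 1 library left out (highest adjusted p 0.0186), and for the others the highest adjusted p ran from 0.0502 to 0.182. For the falls too, a call without replicate 2 of 2 dpa was required by the rule. The rest were si:dkey-6n3.3, jac4, dhrs12la, PGBD5, f5, igfbp6b, svilb, pou3f3b, BSN and SLC6A2. For each of the 14 but SLC6A2 the mean level in uncut fins was below that at 2 dpa.

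**Figure D5:**
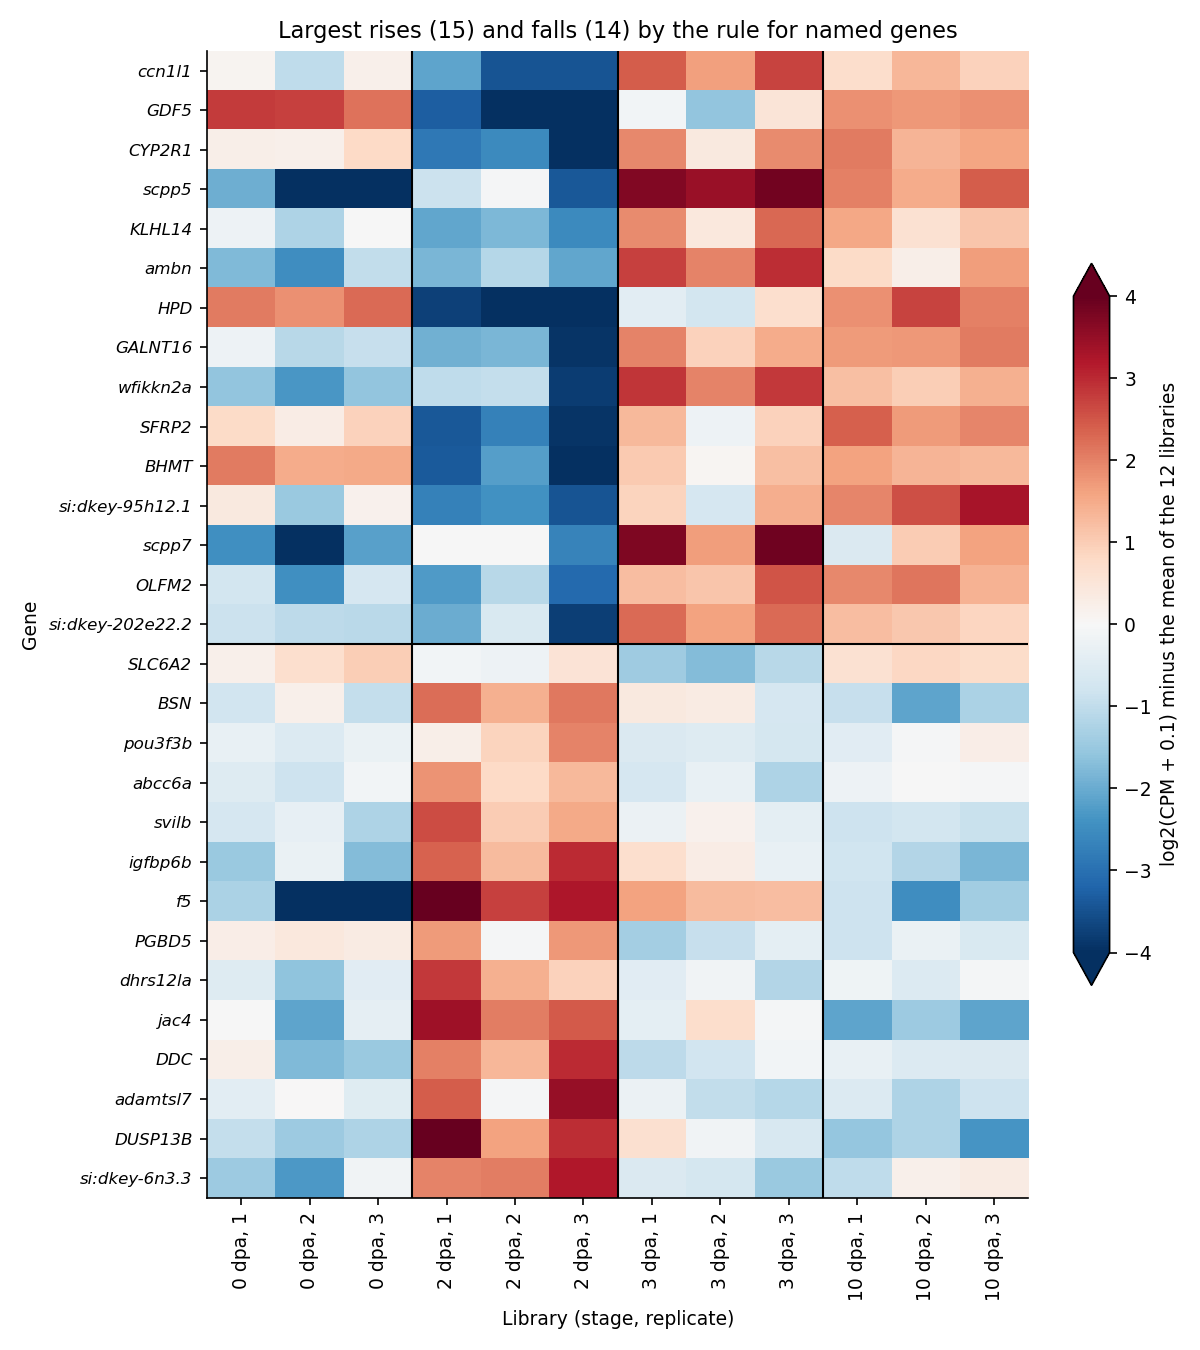
The 15 largest rises (top) and 14 of the largest falls (bottom) by the rule for named genes in all 12 libraries, as log2(CPM + 0.1) minus each gene's mean over the libraries (red, above; blue, below). Most of the falls peak at 2 dpa, while several rises, such as GDF5, HPD and BHMT, are also high in uncut fins and low at 2 dpa.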

How the data were processed

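Per the labels' protocols, RNA came from the Macherey-Nagel RNA XS kit without carrier RNA, libraries from the Lexogen SENSE mRNA-Seq kit, and reads from a SOLiD Wildfire sequencer. Raw read counts per Ensembl identifier were deposited by the authors in 1 table, per the file headers. As to aligner, counter, genome build, annotation and strand, these were not given in the sources used here. Of 33737 identifiers 21939 (65.0%) carry a symbol, and a symbol in capitals does not say which zebrafish paralog it is.

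All 12 libraries entered 1 fit in edgeR 4.0.16 (R 4.3.3, limma 3.58.1) after filterByExpr with a count minimum of 10 and TMM scaling, with robust quasi-likelihood tests and Benjamini-Hochberg adjustment over 16612 genes. A change was called at an adjusted p under 0.05. Errors of log2 changes are approximate standard errors, the size of the change divided by the square root of the test's F statistic. The common biological coefficient of variation was 26.9%. Alternatives were other scalings, no filter, DESeq2 1.42.0, a replicate block, the 6 libraries alone and each library left out. The fit was tested on simulated data. Intervals of count ratios are at 95% and cover counting error only.

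The 40 gene lists (1838 entries, of which 1137 matched a symbol exactly, 415 after a paralog letter was removed, and 284 not at all, with 2 left out by hand) and the comparison itself were chosen with earlier results of these data known. Genes named by rule were the 15 largest rises and falls among genes with a symbol of their own that were called with and without replicate 2 of 2 dpa, reached 10 counts in every pool of the higher stage and did not overlap, plus up to 3 rises and 3 falls per list, or, where none passed, the 2 with the lowest p. Other genes were chosen for their roles or after their values were seen, and some genes are not reported here. The 13 mitochondrially encoded genes had no counts in the 6 libraries.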

Additional observations from a re-analysis of the deposited data

How the results depend on the processing

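Of the genes called with all 12 libraries in 1 fit (545 higher and 82 lower, 506 and 65 of them by at least 2-fold), each that was tested kept its direction under every alternative run, but the number of calls did not hold. Every alternative reused libraries that gave the calls, so neither a kept direction nor a small unadjusted p is separate support. Leaving out 1 library gave 161 to 1101 higher and 12 to 292 lower genes (161 to 1012 and 12 to 161 by at least 2-fold), with the highest counts without replicate 2 of 2 dpa, and 126 genes were called in all 6 of these fits as well as with every library. With the 6 libraries of 2 and 3 dpa alone 30 genes were higher and 6 lower, all by at least 2-fold. DESeq2 called 229 lower genes (115 by at least 2-fold), along with 790 higher ones. In 2 alternatives chosen after seeing the data, the 6 libraries without replicate 2 of 2 dpa gave 853 higher and 212 lower genes (803 and 144 by at least 2-fold), and all stages without replicate 2 of both 2 and 3 dpa gave 1067 and 247 (998 and 170). Replicate 2 of 2 dpa was itself singled out from its values in these data. The cause of these shifts in the counts was not tested. The log2 change of isg15 ranged from -0.28 (adjusted p = 0.912, without replicate 1 of 3 dpa, the pool with its high value) to 2.86 over the fits with 1 library left out, and it was called in none of them. Same-numbered libraries of the stages deviated together with correlations of 0.224, 0.251 and 0.0655, so the numbers were not taken to pair them, although each library correlated best with its own number and a field of the deposited column names, which the labels do not explain, also follows the replicate number. A replicate block in the fit of 12 libraries gave 595 higher and 103 lower genes, and in the fit of the 6 libraries 1 higher and 0 lower (1 and 0 by at least 2-fold), where 599 of 602 earlier calls had an unadjusted p under 0.05. Precision is limited by 3 pools a stage, and for genes near 1 CPM by counting error.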

Other observations

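The genes described here were chosen after their values were seen, so their tests are descriptions of the choice. HGD, an enzyme of tyrosine breakdown that opens the ring of homogentisate, stood at 9.96, 24.4 and 0.703 CPM at 2 dpa and 114, 71.3 and 134 CPM at 3 dpa without overlap (log2 change 3.18 ± 0.71, adjusted p = 0.0259). GSTZ1, of the same pathway, went from 27.6, 21.7 and 14.8 CPM to 49.03, 42.6 and 82.8 CPM. Uncut fins held 233 ± 60.7 and 82.8 ± 26.2 CPM of HGD and GSTZ1. With 1 library left out the calls of both were lost at least once (highest adjusted p 0.129 and 0.160). DMGDH, which acts beside BHMT in the breakdown of choline, rose from 0.453, 0.599 and 0.469 CPM to 2.30, 2.18 and 2.51 CPM and held in all 6 of these fits (highest adjusted p 0.0216).

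SCX, the transcription factor scleraxis of tendon cells, stood at 0.352, 0.133 and 0.156 CPM at 2 dpa and 2.99, 2.06 and 3.12 CPM at 3 dpa (log2 change 3.52 ± 0.43, adjusted p = 0.00153; highest adjusted p with 1 library left out 0.00933), and the tendon factor gene MKX at 0.906, 1.93 and 0 CPM at 2 dpa and 6.77, 2.99 and 8.98 CPM at 3 dpa (log2 change 2.66 ± 0.67, adjusted p = 0.0413; highest adjusted p 0.176). TNMD, tenomodulin, missed the threshold with all libraries (adjusted p = 0.0558) and passed without replicate 2 of 2 dpa (0.00116). The joint lubricant gene prg4a was not called (log2 change -0.74 ± 0.45, adjusted p = 0.487). Of guidance genes SEMA3C, a semaphorin gene, rose from 0.906, 0.732 and 0.391 CPM to 7.92, 4.44 and 10.04 CPM (log2 change 3.39 ± 0.40, adjusted p = 0.00117; highest adjusted p 0.00660), sema3aa from 10.5, 18.5 and 17.7 CPM to 50.8, 30.2 and 55.7 CPM, and the netrin receptor gene UNC5C from 5.64, 8.25 and 4.85 CPM to 20.9, 12.6 and 20.9 CPM. The semaphorin receptor gene PLXNA4 fell from 176, 96.4 and 124 CPM to 73.5, 62.6 and 56.6 CPM (log2 change -1.04 ± 0.25, adjusted p = 0.0359; highest adjusted p 0.166). TPH1 (ENSDARG00000036082), the first enzyme of serotonin synthesis outside the brain, fell from 124, 149.7 and 117 CPM to 28.8, 53.3 and 13.01 CPM (log2 change -2.03 ± 0.48, adjusted p = 0.0313; highest adjusted p 0.122), against 2.30 ± 1.91 CPM in uncut fins.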
